A study of Mus musculus with 12 samples.

Results

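The 4 connexin genes Gjb6, Gjb2, Gjb1 and Gja1 were followed through mammary glands, tumors and cell lines of the WAP-SVT/t mouse model of breast cancer. All 10 probe sets that the platform annotation ties to these genes were taken, out of 22690 probe sets and 12393 genes on the array: 1 for Gjb6, 1 for Gjb2, 2 for Gjb1 and 6 for Gja1. The genes were picked with signals of these same arrays in view, so their levels and differences are described without a test, and every test below concerns other genes.

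RNA was measured on 12 single-color arrays. ME-B-T/t, labelled retransformed, ME-B, labelled revertant, and ME-A are breast cancer cell lines with 1 array each. A further 3 arrays held breast cancers of WAP-SVT/t mice, named tumor 1 to 3 in the labels. WAP-SVT/t mice make the SV40 T and t antigens in mammary epithelial cells only, per the labels, from a transgene named for Wap, a gene for a milk protein, whose promoter is active in secretory cells. Another 3 arrays held glands of WAP-SVT/t mice, called transgenic glands in the plots, and 3 held glands of NMRI mice without the transgene, both at day 1 of lactation. All mice were NMRI females. The labels leave out their ages, the lactation state of the tumor-bearing mice, how the lines were derived and cultured, and whether the tumors came from separate mice. The p-values therefore measure the spread between these samples.

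Connexins are membrane proteins that assemble into hemichannels, and hemichannels of adjoining cells dock to form gap junctions, through which ions and small molecules pass directly between cells. In the mammary gland, Cx26 (Gjb2), Cx30 (Gjb6) and Cx32 (Gjb1) are known from luminal epithelial cells, and in mice they rise with pregnancy and lactation. Cx43 (Gja1), which is also made by fibroblasts, endothelium and many other cells, is known from the myoepithelial cells that contract to expel milk.

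Gjb6 and Gjb2 are adjacent protein-coding genes on chromosome 14, in the order Gja3, Gjb2, Gjb6, Cryl1 in the RefSeq mouse annotation. Gja1 lies on chromosome 10 and Gjb1 on chromosome X. The 250 bases before the annotated start of the 3 members with a clear signal are shown 5′ to 3′ on the strand of the gene, because their levels across the groups ran differently. They are from RefSeq on build GRCm38.p6, at chr14:57133612-57133861 on the minus strand for Gjb6, chr14:57104703-57104952 on the minus strand for Gjb2 and chr10:56377050-56377299 on the plus strand for Gja1. Capitals mark matches to 2 of the 3 motifs searched on both strands. These are the GC box, which reads GGGCGG on the gene's strand or as its reverse complement there, and the AP-1 motif, which reads TGANTCA. No matches overlapped.
Gjb6: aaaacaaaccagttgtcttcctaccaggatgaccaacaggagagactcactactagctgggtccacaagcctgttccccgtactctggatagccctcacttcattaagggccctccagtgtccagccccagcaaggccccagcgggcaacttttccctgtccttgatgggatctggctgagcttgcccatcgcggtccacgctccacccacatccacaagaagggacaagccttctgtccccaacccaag
Gjb2: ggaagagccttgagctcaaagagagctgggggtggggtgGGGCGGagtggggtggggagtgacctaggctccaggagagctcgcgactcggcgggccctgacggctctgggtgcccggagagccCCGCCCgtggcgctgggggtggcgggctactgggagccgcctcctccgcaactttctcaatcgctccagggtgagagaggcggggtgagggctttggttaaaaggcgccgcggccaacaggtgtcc
Gja1: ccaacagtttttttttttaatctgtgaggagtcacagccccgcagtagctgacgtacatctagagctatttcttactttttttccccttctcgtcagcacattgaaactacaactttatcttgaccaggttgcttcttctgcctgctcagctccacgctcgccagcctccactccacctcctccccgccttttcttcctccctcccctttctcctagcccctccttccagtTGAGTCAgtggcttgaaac
The Gjb2 window was 69.2% G and C and held 2 GC boxes, which begin 211 and 126 bases before the start. A GC box was present in 32.7% of the 32851 promoter windows of this length. The Gja1 window, 50% G and C, held 1 AP-1 match, TGAGTCA, beginning 19 bases before the start, and 6.75% of windows held this motif. The Gjb6 window, 56.8% G and C, had no match to these motifs. The STAT motif TTCNNNGAA, present in 7.02% of windows, matched in none of the 3 sequences. A match describes letters only. Gjb1 has 4 annotated starts in the table, and its windows are not shown because its signals were near background.

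Signals are in intensity units on a linear scale after each array was scaled to a common trimmed mean. Signals under 57.3, the pooled 30th percentile, were treated as near background and set to this floor before log2 values were taken. Differences are given on the log2 scale ± standard error of the difference, with n = 3 arrays a group. The share of probe sets above this floor was 67.7% to 72.6% over the arrays. The ratio of 3′ to 5′ control signals of Gapdh, which rises as RNA is degraded, was 0.753 to 0.949 in the lines, 0.969 to 5.63 in tumors, 2.49 to 22.5 in WAP-SVT/t glands and 2.28 to 40.3 in NMRI glands, and was over 10 in 4 glands, replicates 1 and 3 of each kind. With 3 arrays a group, the number of arrays limits the precision.

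Gjb6 was bright in NMRI glands and near background on almost all other arrays. WAP-SVT/t tumors 1 to 3 had 34.7, 21.2 and 36.5 and WAP-SVT/t glands had 30.1, 37.7 and 50.3, against 846, 904 and 858 in NMRI glands. All tumors and all WAP-SVT/t glands were thus under the floor, and no value approached the NMRI range. The means were 30.8 ± 8.39 in tumors, 39.4 ± 10.2 in WAP-SVT/t glands and 869 ± 30.5 in NMRI glands (SD, n = 3 each). Against the floor, Gjb6 was at least 15.2-fold lower in WAP-SVT/t glands than in NMRI glands, a log2 difference of -3.92 ± 0.03. This error holds the spread of the NMRI glands alone, since arrays set to the floor have none. The same bound held for tumors against NMRI glands because tumors and WAP-SVT/t glands were all at the floor. For the same reason no difference between tumors and WAP-SVT/t glands was measurable. Among the lines, ME-B-T/t had 67.5, just above the floor, and ME-B and ME-A had 49.3 and 40.8, below it.

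In the pair of glands with the lowest Gapdh ratios, WAP-SVT/t gland 2 (ratio 2.49) and NMRI gland 2 (ratio 2.28), the Gjb6 signals were 37.7 and 904. The part of RNA integrity in the Gjb6 difference was not tested. The 17 luminal epithelium markers had a mean log2 signal of 10.3 to 10.4 in WAP-SVT/t glands and 10.1 to 10.8 in NMRI glands, with 16 or 17 of 17 above the floor on each gland array. Of 16 of them tested between these glands in limma, 0 rose and 2 fell, where 6.07% of all 7902 genes tested rose and 4.02% fell. Markers of skin, a tissue known to make both Cx30 and Cx26, averaged 6.33 to 6.43 in WAP-SVT/t glands and 6.45 to 6.49 in NMRI glands, where the floor is 5.84. Of these 11 markers 5 were above the floor in each WAP-SVT/t gland and 4 to 6 in NMRI glands. The cornified envelope gene Ivl had at most 5.39 on any array. Lor of the same list had 141, 108 and 206 in WAP-SVT/t glands and 309, 245 and 285 in NMRI glands. Krt6a was also higher in each NMRI gland than in each WAP-SVT/t gland, while Krt1, Krt10 and Krt71 overlapped. Of 4 skin markers tested between these glands in limma, 0 passed, with log2 differences of -0.93 to 0.38. The part of skin in the Gjb6 difference was not tested. Skeletal muscle markers averaged 6.57 and 6.78 in WAP-SVT/t glands 1 and 2 but 10.8 in WAP-SVT/t gland 3, within the NMRI range of 9.73 to 10.8, and Gjb6 was under the floor in all 3 WAP-SVT/t glands.

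Milk secretion markers, like Gjb6, were lower in WAP-SVT/t glands and in tumors than in NMRI glands. The mean log2 signal of 10 milk protein and milk fat genes was 7.79 to 8.90 in tumors, 11.6 to 12.2 in WAP-SVT/t glands and 13.5 to 13.8 in NMRI glands. In limma, 6 of 10 fell in WAP-SVT/t against NMRI glands, where 4.02% of all 7902 genes tested fell, and 10 of 10 fell in tumors against NMRI glands, where 11.6% did. In tumors against WAP-SVT/t glands 8 of 10 fell in limma, where 1.71% of genes did, while Gjb6 was at the floor in both groups. All 10 were above the floor in every gland, including the WAP-SVT/t glands without measurable Gjb6. The part of the secretory state in the Gjb6 difference was not tested. In tissue RNA, fewer cells of a type and less RNA per cell cannot be told apart.

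Gjb2 was lower in WAP-SVT/t glands than in NMRI glands but remained bright there. It had 80.5, 134 and 876 in tumors 1 to 3, 865, 911 and 1001 in WAP-SVT/t glands, and 2132, 3467 and 4333 in NMRI glands. Both kinds of gland lay apart, with each WAP-SVT/t gland under each NMRI gland. Tumors 1 and 2 were lower still, and tumor 3 lay inside the range of the WAP-SVT/t glands. The means were 364 ± 445 in tumors, 926 ± 69.2 in WAP-SVT/t glands and 3311 ± 1109 in NMRI glands (SD, n = 3 each).

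The log2 difference of Gjb2 was -1.78 ± 0.31 for WAP-SVT/t against NMRI glands, 3.44-fold lower. For tumors against NMRI glands it was -3.91 ± 1.09, 15.0-fold lower and without overlap. This value was -4.93 without tumor 3 and -3.21 without tumor 1. For tumors against WAP-SVT/t glands it was -2.13 ± 1.05, and the groups overlapped through tumor 3. Without tumor 3 it was -3.15 and without tumor 1 it was -1.43. Tumor 3 had the highest Gjb2 of the tumors and the lowest milk secretion mean, 7.79, against 8.90 and 8.67 in tumors 1 and 2. With 3 tumors a relation of Gjb2 to the milk genes cannot be tested.

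The lines spread as widely as the tumors in Gjb2. ME-B-T/t had 39.5, under the floor, ME-B had 147 and ME-A had 605. ME-A also had the highest luminal epithelium mean of the lines, 10.8 on the log2 scale with 17 of 17 markers above the floor. The same mean was 6.37 in ME-B-T/t and 6.56 in ME-B, with 6 and 8 markers above the floor. The epithelial cadherin Cdh1, a defining marker, had 38.1 in ME-B-T/t, 74.4 in ME-B and 2938 in ME-A. Thus the label breast cancer line covers 1 line with epithelial markers and 2 lines in which most of them were at background. Across the lines and tumors the log2 difference of Gjb2 was -0.30 ± 1.44 (lines minus tumors), with overlap. Its sign turned without ME-B-T/t, at 0.50, and without tumor 3, at 0.73, and it was -1.20 without ME-A and -0.99 without tumor 1.

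Gjb1 was hardly detected. Its probe set 1448767_s_at had 12.9, 18.2 and 11.5 in tumors, 10.6, 13.7 and 9.98 in WAP-SVT/t glands and 81.4, 128 and 20.2 in NMRI glands. It was above the floor only in NMRI glands 1 and 2. NMRI gland 3, which was also the array with the highest Gapdh ratio, 40.3, was under the floor with the tumors and WAP-SVT/t glands. The log2 difference was -0.55 ± 0.33 both for WAP-SVT/t glands and for tumors against NMRI glands, with the groups overlapping at the floor. The lines had 20.1 in ME-B-T/t, 11.7 in ME-B and 14.0 in ME-A. Its second probe set, 1448766_at, was at the floor on all 12 arrays.

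Gja1 ran the other way, with its highest signals in lines and tumors. On 1437992_x_at, its brightest probe set, tumors 1 to 3 had 2454, 2093 and 963, WAP-SVT/t glands had 982, 812 and 1896, and NMRI glands had 538, 508 and 858. The tumors all lay above the NMRI glands, while WAP-SVT/t glands overlapped with both. The means were 1837 ± 778 in tumors, 1230 ± 583 in WAP-SVT/t glands and 635 ± 194 in NMRI glands (SD, n = 3 each).

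The log2 difference of Gja1 was 1.47 ± 0.48 for tumors against NMRI glands, 2.76-fold higher. It was 0.90 ± 0.44 for WAP-SVT/t against NMRI glands and 0.57 ± 0.56 for tumors against WAP-SVT/t glands, both with overlap. Between glands of the same number, the WAP-SVT/t gland had more Gja1 in 3 of 3 pairs, by 0.87, 0.68 and 1.14 on the log2 scale, a mean of 0.90 with a paired standard error of 0.14. Comparisons against NMRI glands share those 3 control arrays. The lines had 1346 in ME-B-T/t, 2776 in ME-B and 3347 in ME-A, the last being the highest Gja1 signal of the 12 arrays. Lines minus tumors gave 0.45 ± 0.58 on the log2 scale, with overlap.

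**Figure D1:**
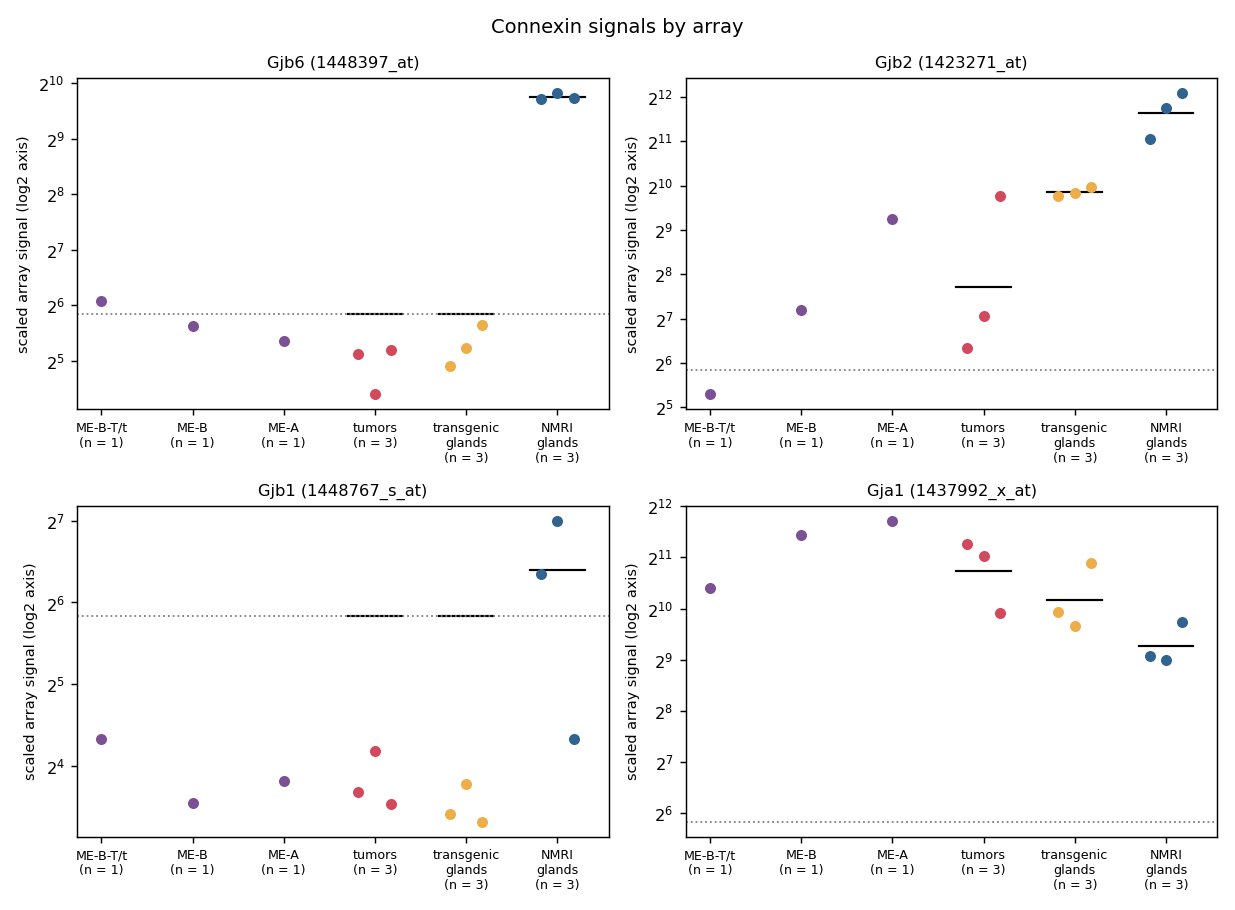
Scaled signals of the 4 connexin genes on a log axis, with 1 point per array and the groups in columns; black bars are means of log2 values over 3 arrays after the floor was set, and the dotted line is the floor of 57.3. Gjb6 lies at 846 to 904 in the 3 NMRI glands and at or near the floor elsewhere, Gjb2 steps down in WAP-SVT/t glands and scatters in tumors and lines, Gjb1 is above the floor on 2 arrays, and Gja1 is highest in lines and tumors.

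Gja1 signals on 1437992_x_at varied within groups together with tissue markers in some arrays and without them in others. WAP-SVT/t gland 3, with the highest Gja1 of the glands, also had the highest fibroblast and matrix mean of the 9 tissue arrays, 11.3, against 10.6 and 10.98 in the other WAP-SVT/t glands, and the highest adipocyte mean, 11.7. The order of the tumors was only partly alike, since tumors 2 and 3 had nearly equal fibroblast means, 9.48 and 9.45, at Gja1 signals of 2093 and 963. ME-A, with the highest Gja1, had a fibroblast mean of 6.39 with 4 of 11 markers above the floor. Dcn, a defining fibroblast gene, had 16.0 there, but Postn of the same list had 1599. Basal and myoepithelial markers averaged 7.04 to 7.53 in tumors, 8.51 to 8.71 in WAP-SVT/t glands and 8.26 to 8.78 in NMRI glands. Of 11 tested, 9 fell in tumors against NMRI glands in limma, where 11.6% of all 7902 genes tested fell. On 1437992_x_at all 3 tumors had more Gja1 than the NMRI glands. Over the 6 Gja1 probe sets the tumors minus NMRI differences ran from -0.35 to 1.47 on the log2 scale. The part of these cell types in the Gja1 values of the tissues was not tested.

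**Figure D2:**
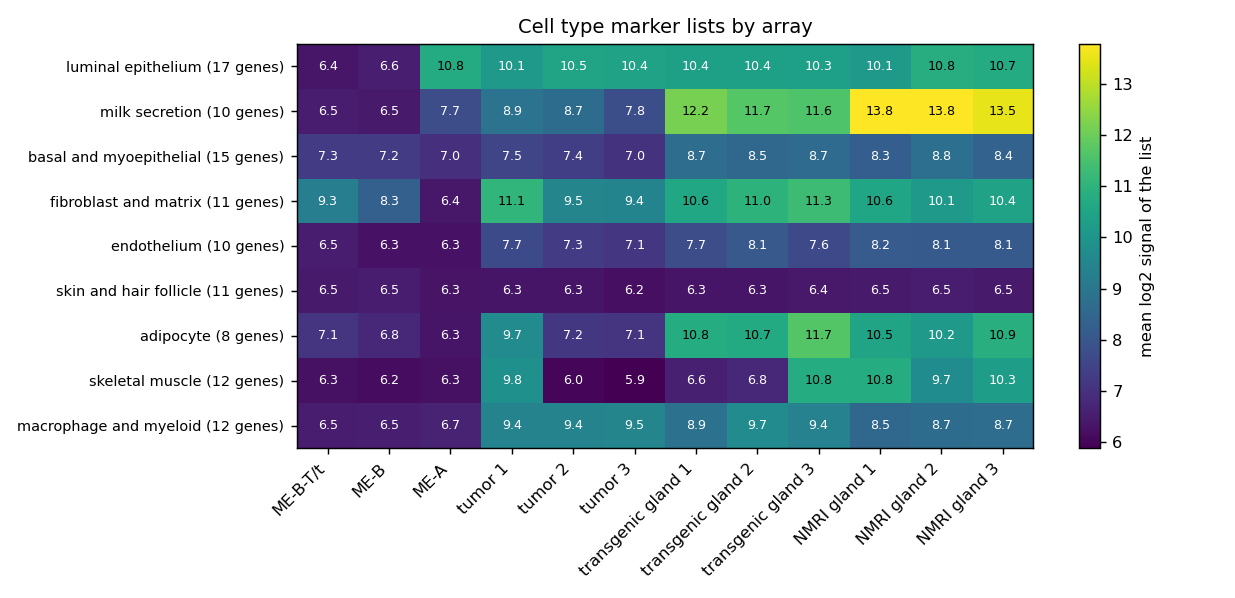
Heat map of the mean log2 signal of each marker list (rows) on each of the 12 arrays (columns), with the value printed in each cell. Milk secretion markers are at 7.79 to 8.90 in tumors, 11.6 to 12.2 in WAP-SVT/t glands and 13.5 to 13.8 in NMRI glands, luminal markers are above 10 on the 9 tissue arrays and in ME-A, and skin markers stay between 6.22 and 6.51 on all arrays.

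The 6 Gja1 probe sets did not all behave alike. Among 4 of them, 1437992_x_at, 1438945_x_at, 1415800_at and 1438650_x_at, Pearson's r over the 12 arrays was 0.954 to 0.993, a description of points that share arrays and tissues. The suffix x marks probe sets with probes that may also match other transcripts. The same-numbered pairs of glands gave positive WAP-SVT/t minus NMRI differences in 3 of 3 pairs on each of these 4, with means of 0.28 to 0.90. In these 4 the tumors minus NMRI differences on the log2 scale were 1.47, 1.30, 1.23 and 0.99. Only on the first, 1437992_x_at, did all tumors lie above all NMRI glands. The others overlapped through tumor 3, which had 418.5 on 1438945_x_at where NMRI gland 3 had 543. Probe set 1438973_x_at was flatter, at 205, 270 and 182.5 in tumors, 241, 159 and 239 in WAP-SVT/t glands and 306, 260 and 263 in NMRI glands. It was lower in WAP-SVT/t than in NMRI glands without overlap, by a log2 difference of -0.40 ± 0.21 and in 3 of 3 pairs, against 0.90 on the brightest probe set.

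Probe set 1415801_at separated the lines and tumors from the glands. It had 362, 393 and 431 in ME-B-T/t, ME-B and ME-A and 138, 189 and 143 in tumors 1 to 3. The WAP-SVT/t glands had 38.4, 53.0 and 10.2 and the NMRI glands 20.7, 85.3 and 13.4, so that only NMRI gland 2 was above the floor among the glands. In both kinds of gland its highest value was in replicate 2, the gland with the lowest Gapdh ratio of its group, and its lowest was in replicate 3, with the highest ratio. Whether RNA integrity set these values was not tested. Over the 6 probe sets the median log2 difference was 0.37 for WAP-SVT/t against NMRI glands (range -0.40 to 0.90, 4 of 6 above 0), 0.63 for tumors against WAP-SVT/t glands (0.05 to 1.44), 1.24 for tumors against NMRI glands (-0.35 to 1.47) and 0.59 for lines against tumors (0.32 to 1.35).

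**Figure D3:**
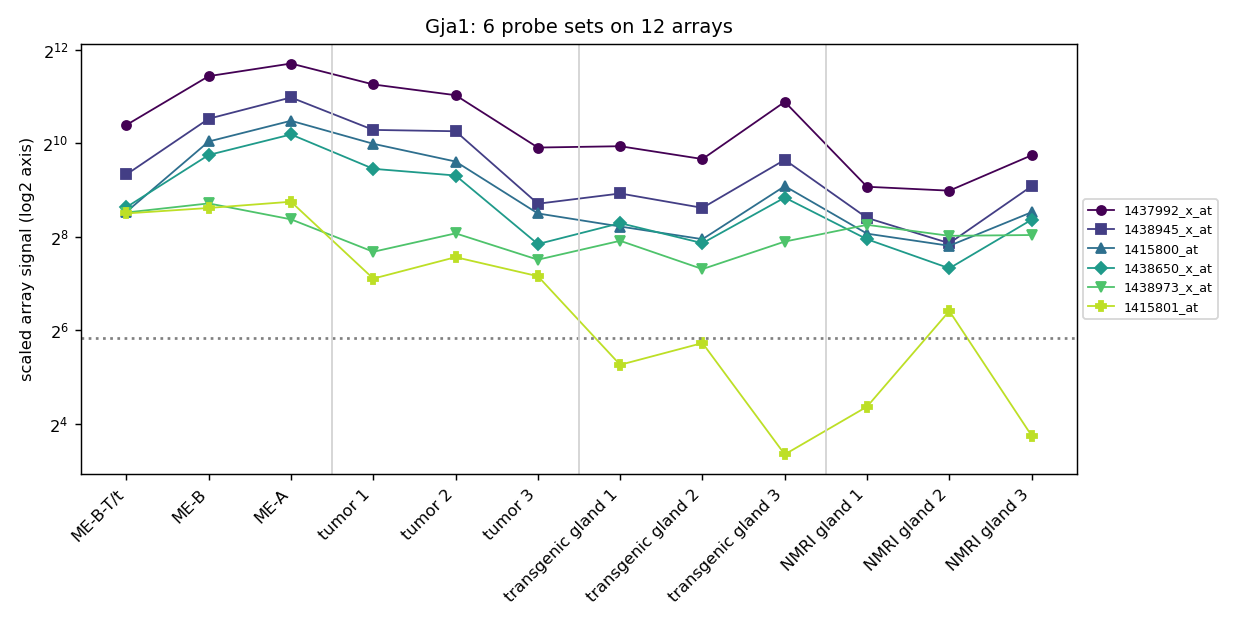
Scaled signals of the 6 Gja1 probe sets on a log axis over the 12 arrays, 1 point per array and a line per probe set, with the floor of 57.3 as a dotted line. The 4 probe sets with r of 0.954 or more follow similar courses, 1438973_x_at stays between 159 and 420, and 1415801_at is under the floor on 5 of the 6 gland arrays.

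Counted by gene on the probe set with the highest mean, 0 of 4 members were higher and 2 of 4, Gjb6 and Gjb2, were lower without overlap in WAP-SVT/t than in NMRI glands, where 16.3% of the 7902 genes tested were higher and 14.8% lower without overlap. In tumors against NMRI glands 1 of 4, Gja1, was higher and 2 of 4, Gjb6 and Gjb2, were lower, against 22.4% and 21.5% of genes. In tumors against WAP-SVT/t glands all 4 overlapped, where 8.81% of genes were higher and 10.9% lower without overlap. In lines against tumors all 4 overlapped as well, against 11.2% and 12.3% of 7349 genes. Nothing is read from these counts, because the members were chosen from the same values. Gjb1 did not pass the filter on dim probe sets, which asks for 3 arrays above the pooled median of 139.7, and Gjb6 passed it only through the 3 NMRI glands.

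On the brightest Gja1 probe set, 1437992_x_at, the order of the samples was the reverse of that by Gjb2 in the tumors and the same in the lines. Tumor 3 had the highest Gjb2, 876, and the lowest Gja1, 963, and tumor 1 had the lowest Gjb2, 80.5, and the highest Gja1, 2454. In the lines both genes were highest in ME-A and lowest in ME-B-T/t. Probe sets 1438945_x_at, 1415800_at and 1438650_x_at gave the same orders. Probe set 1438973_x_at gave neither, with 205, 270 and 182.5 in tumors 1 to 3 and its lowest line signal, 332, in ME-A. Probe set 1415801_at gave the order of the lines but not that of the tumors, with 138, 189 and 143 in tumors 1 to 3. With 3 tumors and 1 array a line no relation can be tested.

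The genes with profiles nearest to each member were found by the root mean square distance of log2 values over the 12 arrays, each gene centred on its own mean, among 8190 genes (8191 for Gjb1). For Gjb6 these were Gldc, a subunit of the mitochondrial glycine cleavage system, at 0.54, Rnase1, a secreted ribonuclease, at 0.57 and Slc41a3, a solute carrier, at 0.58, where Gjb6 itself varied by 1.69 about its mean. Gldc had 31.5, 6.39 and 20.6 in tumors and 180, 23.9 and 43.2 in WAP-SVT/t glands, against 1701, 760 and 875 in NMRI glands, so that WAP-SVT/t gland 1 was above the floor for Gldc but not for Gjb6. For Gjb2 they were Ogfrl1 at 0.80, Nucb2, a calcium-binding protein, at 0.93 and Mal2, a protein of vesicle transport in polarized epithelia, at 0.94, against a variation of 2.00. For Gja1 they were Lrrfip1 at 0.39, the scaffold protein Dlg5 at 0.42 and Nfkbiz, a nuclear regulator of NF-kappa-B, at 0.46, against 0.88. For Gjb1, at the floor on 10 of 12 arrays, the measure returned genes that hardly vary, Zfp830, Sptlc1 and Dnajb5, at 0.18 to 0.20 against a variation of 0.34.

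Among the other gap junction genes, tumors had more Gjc1 and less Gjd2 than NMRI glands. The lists held 16 other connexins and 3 pannexins, which form channels without docking, and 10 of these 19 had a probe set. Only 4, Gjc1, Gjd2, Gja4 and Panx1, were bright enough to be tested in the tissues. Gja5, Gjb5 and Gjd4 were above the floor on 0 of 12 arrays, and Gja10, Gjc3 and Gja3 on 2, 3 and 4.

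Gjc1 encodes Cx45, known from the conduction tissue of the heart and from smooth muscle. It had 178, 252 and 222 in tumors, 104, 85.7 and 147 in WAP-SVT/t glands and 42.6, 53.3 and 70.5 in NMRI glands. It rose in tumors against NMRI glands by 1.81 ± 0.29 on the log2 scale, 3.50-fold with 2 NMRI glands at the floor (limma, adjusted p = 0.00140), and all 3 tumors lay above all NMRI glands. The adjusted p was 0.00395 in a limma fit with no filter on dim probe sets. The WAP-SVT/t glands lay between, and neither WAP-SVT/t against NMRI glands (0.83, limma adjusted p = 0.0995) nor tumors against WAP-SVT/t glands (0.97, limma adjusted p = 0.119) passed. The lines had 340 in ME-B-T/t, 299 in ME-B and 122 in ME-A, an order opposite to that of Gjb2 and of the brightest Gja1 probe set. Lines against tumors gave 0.11 (limma, adjusted p = 0.921).

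Gjd2 encodes Cx36, the main connexin of neuronal gap junctions. It had 28.0, 15.9 and 37.6 in tumors, 122, 63.7 and 64.9 in WAP-SVT/t glands and 225, 205 and 173 in NMRI glands. The 3 groups did not overlap. Gjd2 passed the filter on dim probe sets only through the 3 NMRI glands, where it is high. The comparisons with NMRI glands are therefore also given from a limma fit with no such filter. It fell in WAP-SVT/t against NMRI glands by 1.33 ± 0.32 on the log2 scale, 2.51-fold (limma, adjusted p = 0.0221, and 0.0302 with no filter). In tumors, all at the floor, it was at least 3.49-fold lower than in NMRI glands (limma, adjusted p = 0.00223, and 0.00567 with no filter). Tumors against WAP-SVT/t glands gave -0.47 on the log2 scale and did not pass (limma, adjusted p = 0.494).

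Panx1, a pannexin that releases ATP from cells, was highest in WAP-SVT/t glands. It had 79.3, 45.03 and 165 in tumors, 226, 210 and 210 in WAP-SVT/t glands and 88.1, 96.5 and 82.6 in NMRI glands. It rose in WAP-SVT/t against NMRI glands by 1.28 ± 0.36 on the log2 scale, 2.42-fold (limma, adjusted p = 0.0472). With the sample number as a block the adjusted p was 0.0537 over the 9 tissue arrays and 0.0142 over the 6 glands alone (limma). Panx1 passed the filter on dim probe sets through the WAP-SVT/t glands, where it is high, and tumor 3. With no filter the adjusted p was 0.0931 (limma). Tumors against WAP-SVT/t glands gave -1.24 (limma, adjusted p = 0.105).

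**Figure D4:**
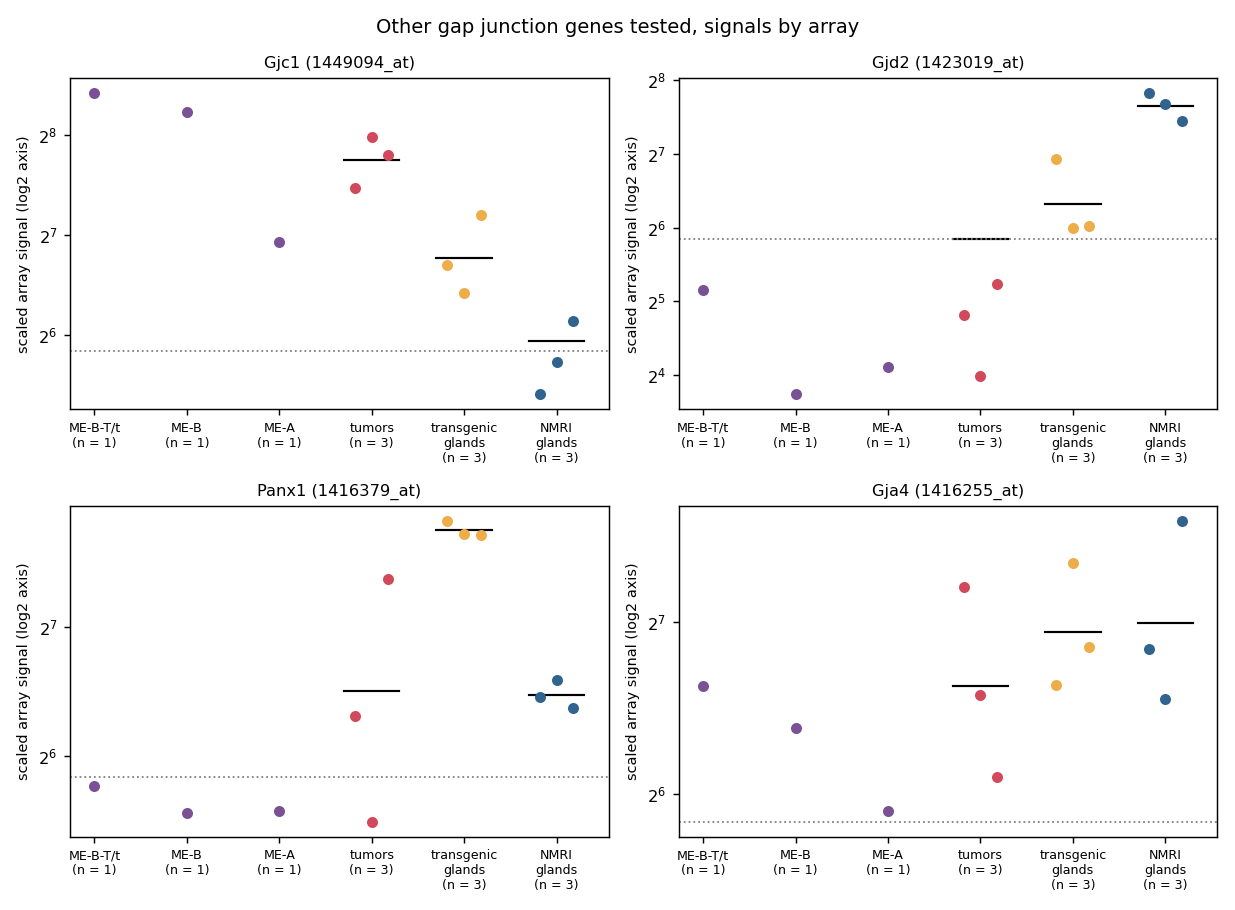
Scaled signals of the 4 other gap junction genes tested, on a log axis with 1 point per array and the floor of 57.3 as a dotted line; black bars are means of log2 values over 3 arrays. Gjc1 lies at 178 to 252 in tumors and 42.6 to 70.5 in NMRI glands, Gjd2 is under the floor in tumors and lines, Panx1 is at 210 to 226 in WAP-SVT/t glands, and Gja4 overlaps between the 3 tissue groups.

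Of these 4 tested genes, 1 rose and 1 fell in WAP-SVT/t against NMRI glands, where 10.1% of all 7902 genes passed (6.07% rose and 4.02% fell), with a median log2 difference of 0.39 against 0.01 over all genes. In tumors against NMRI glands 1 rose and 1 fell, where 24.6% of genes passed (12.9% rose and 11.6% fell), with a median of -0.17 against 0.02. In tumors against WAP-SVT/t glands 0 passed in limma, 2 had an unadjusted p under 0.05, and 2.95% of genes passed overall (1.24% rose and 1.71% fell). In lines against tumors Gjc1 was the only one tested and 0 passed in limma, with 0 at an unadjusted p under 0.05, where 2.30% of 7349 genes passed (0.422% rose and 1.88% fell). These counts carry the filter's choice of genes. With no filter, limma called Gjd2 alone of 10 genes in WAP-SVT/t against NMRI glands, and Gjc1 and Gjd2 in tumors against NMRI glands. The WAP-SVT/t against NMRI count was 0 without WAP-SVT/t gland 2 or 3 or any 1 NMRI gland and 1 without WAP-SVT/t gland 1 or tumor 1. Without any 1 NMRI gland Gjd2 no longer passed the filter and was not tested in either comparison, which leaves Gjc1 alone called in tumors against NMRI glands. The tumors against WAP-SVT/t count was 1, Panx1, without tumor 3.

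Proteins that bind, move or phosphorylate connexins and factors known to control their transcription formed a list of 49 genes, 42 of them with a probe set. In WAP-SVT/t against NMRI glands 2 of 33 tested rose and 1 fell, with a median log2 difference of 0.07 against 0.01 over all genes. Of all 7902 genes tested 6.07% rose and 4.02% fell, so the count was near that of genes at large. Cdk1, the mitotic kinase that phosphorylates Cx43, had 2741, 1726 and 1379 in WAP-SVT/t glands and 172, 131 and 105 in NMRI glands, and rose by 3.81 ± 0.30 on the log2 scale, 14.0-fold (limma, adjusted p = 1.65e-05). Vim, the intermediate filament protein vimentin, had 2214, 3143 and 3094 in WAP-SVT/t glands and 1306, 1587 and 1810 in NMRI glands, 1.79-fold higher (limma, adjusted p = 0.0384). Src, a tyrosine kinase that phosphorylates Cx43 and closes its channels, had 311, 238 and 183 in WAP-SVT/t glands and 421, 558 and 420 in NMRI glands, 1.94-fold lower (limma, adjusted p = 0.0345). With the median of all probe sets of a gene, Vim gave 0.54 (limma, adjusted p = 0.302) and Src -0.83 (limma, adjusted p = 0.0791) on the log2 scale. The count of 3 called genes was 5 without WAP-SVT/t gland 1 and 1 without WAP-SVT/t gland 2 or 3 or NMRI gland 1.

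In tumors against WAP-SVT/t glands 1 of the 33 rose and 1 fell, with a median of 0.03 against -0.00367 over all genes. Of all 7902 genes tested 1.24% rose and 1.71% fell. Dbn1, the actin-binding protein drebrin that holds Cx43 at the membrane, had 498, 599 and 804 in tumors and 143, 211 and 143 in WAP-SVT/t glands, 3.82-fold higher (limma, adjusted p = 0.00474). Elf5, a transcription factor of alveolar secretory cells, had 1494.95, 1900 and 2835 in tumors and 5586, 3470 and 6188 in WAP-SVT/t glands, 2.46-fold lower (limma, adjusted p = 0.0292). Elf5 is also in the luminal marker list. Without tumor 1, tumor 2, WAP-SVT/t gland 1 or WAP-SVT/t gland 3, Dbn1 alone passed.

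In tumors against NMRI glands 5 of the 33 rose and 3 fell, with a median of -0.08 against 0.02 over all genes. Of all 7902 genes tested 12.9% rose and 11.6% fell, so the count was near that of genes at large. The 4 with the smallest p were Cdk1, 17.0-fold higher (limma, adjusted p = 7.69e-06), Elf5, 3.81-fold lower (limma, adjusted p = 0.000538), Dbn1, 2.98-fold higher (limma, adjusted p = 0.00213), and Sp3, a factor that binds GC boxes, 2.53-fold higher (limma, adjusted p = 0.00899). Sp3 had 349, 350 and 392 in tumors and 127, 219 and 107 in NMRI glands. The other called genes, named after their values were seen, were Vim and Ubqln4, 1.76 and 1.80-fold higher, and Stat5a, the transcription factor downstream of the prolactin receptor, and Snai2, 2.61 and 2.42-fold lower. With the median of all probe sets of a gene, Vim and Stat5a were not called. The count of 8 was 5 without tumor 1, NMRI gland 1 or NMRI gland 2.

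In lines against tumors 1 of 32 tested passed and it rose, with a list median of -0.15 against -0.00174 over all genes. Of all 7349 genes tested 0.422% rose and 1.88% fell. Cdh2, the cadherin of mesenchymal and neural cells, had 1314 in ME-B-T/t, 1382 in ME-B and 394 in ME-A, against 38.4, 68.5 and 183 in tumors, 9.99-fold higher with tumor 1 at the floor (limma, adjusted p = 0.0452, and 0.188 with no filter on dim probe sets, which Cdh2 passed through the lines). Without ME-A the count was 11, Cdh1 and Vim among them, and without any other of the 6 arrays it was 0. The lines differed from each other in these genes: Vim had 10766 in ME-B-T/t, 11490 in ME-B and 482 in ME-A, and Elf5 had 12.8, 14.9 and 3151.

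**Figure D5:**
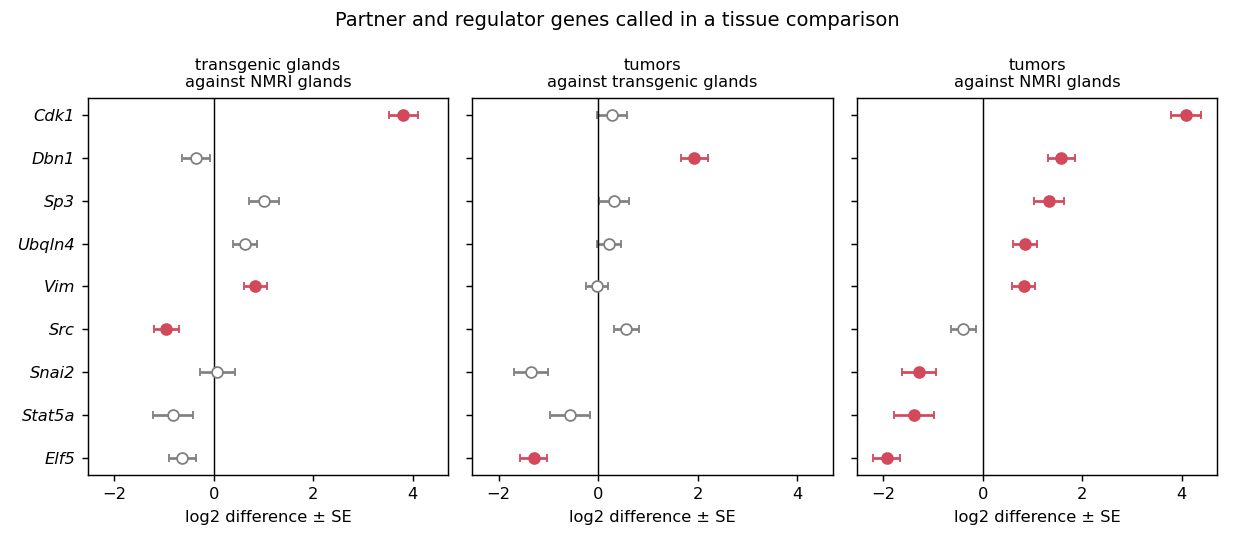
Log2 differences of the partner and regulator genes called in a tissue comparison, with standard errors from limma, in a panel for each comparison; filled red points passed at an adjusted p under 0.05 and open grey points did not. Cdk1 is furthest to the right in both comparisons with NMRI glands, at 3.81 and 4.09, and Dbn1 and Elf5 are the called genes of tumors against WAP-SVT/t glands.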

How the data were processed

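A single-color array with 22690 probe sets was run for each of 12 samples. The deposited table gives linear signal intensity per probe set, computed by the authors with MAS5, per the submitters' processing notes. No source used here names the MAS5 version, scaling target or detection calls. Arrays were brought to a common trimmed mean (2% left out at each end), and the deposited trimmed means lay within 1.19-fold. A floor at the pooled 30th percentile, 57.3, was applied before log2 values were taken. The 64 control probe sets were left out. The platform table, updated to RefSeq symbols, gave 1 gene for 20380 probe sets, several for 691 and none for 1555. The probe set with the highest mean stood for a gene, kept if 3 arrays of the fit exceeded the pooled median of 139.7.

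Tests used limma 3.58.1 (lmFit, eBayes with trend; R 4.3.3), two-sided, with Benjamini-Hochberg adjustment over all genes and a threshold of 0.05. The 9 tissue arrays formed 1 fit of 3 groups with 6 residual degrees of freedom, and lines against tumors another with 4. Promoters were read and figures drawn in Python 3.11.15 with matplotlib 3.10.9. The test was tried on simulated data first.

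The labels number the glands alike. Deviations from the group means of same-numbered WAP-SVT/t and NMRI glands correlated at 0.22, 0.37 and 0.37 over 7902 genes, so same-numbered glands are also compared as pairs. The labels do not say what a number marks, so the fits reported hold no replicate block. Gapdh ratios of the WAP-SVT/t and NMRI gland were 10.7 and 12.9, 2.49 and 2.28, and 22.5 and 40.3 for numbers 1 to 3. The part of RNA integrity in these correlations was not tested. The numbers of the tumors did not pair with either.

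The 4 connexins, the gene lists and the marker lists were chosen with earlier results of these data known. Named genes were all probe sets of the 4 connexins, every other gap junction gene that passed, the 4 partner or regulator genes with the smallest p in each comparison, and the 3 genes nearest in profile to each connexin. Alternatives covered the scaling, floor, filter, choice of probe set, groups in the fit, a replicate block and leaving out each array.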

Additional observations from a re-analysis of the deposited data

How the results depend on the processing

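Directions of Gjb6, Gjb2 and Gja1 against NMRI glands held under every alternative run. Under other settings, 21 of 92 values of the 4 connexins moved by more than the spread between replicates. With 1 array left out none of 96 did. This was fixed in advance, since with 3 arrays a group leaving out 1 cannot shift a difference beyond that spread. That spread is wide for Gjb2, whose values with 1 array left out ran over -4.93 to -3.21 for tumors against NMRI glands, -3.15 to -1.43 for tumors against WAP-SVT/t glands and -1.20 to 0.73 for lines against tumors, where the sign turned. Gjb6 values are set by the floor: WAP-SVT/t against NMRI glands gave -3.85 without further scaling, -4.50 with a 10th percentile floor, -3.37 with an offset of 50 in place of the floor and -3.98 without the 4 glands of Gapdh ratio over 10, an alternative chosen after seeing the data. Tumors against NMRI glands gave -3.85, -4.86, -3.51 and -3.98 under the same settings. With the 10th percentile floor and the offset, Gjb6 gave -0.36 and -0.14 for tumors against WAP-SVT/t glands and 0.78 and 0.34 for lines against tumors. Gjb1 gave -2.30 for WAP-SVT/t and -2.09 for tumors against NMRI glands with the 10th percentile floor, and -1.15 for both without the 4 glands. With the 10th percentile floor and the offset it gave 0.21 and 0.0629 for tumors against WAP-SVT/t glands and 0.0940 and 0.0228 for lines against tumors. The median of the 6 Gja1 probe sets gave 0.23 for WAP-SVT/t against NMRI glands.

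Of the single called genes, 33 of 193 values under other settings and 42 of 150 with 1 array left out lost the call, and 0 reversed. Other gap junction genes called in WAP-SVT/t against NMRI glands, 2 in the fit reported, numbered 0 with the 10th percentile floor, 1 with the offset, 1 without a filter, 1 with the replicate block, 0 without the 4 glands and 0 to 2 with 1 array left out. In tumors against WAP-SVT/t glands they numbered 0 to 1 with 1 array left out, and in tumors against NMRI glands 0 without the 4 glands and 1 to 2 with 1 array left out, the lower count where Gjd2 was not tested. Partner and regulator genes in WAP-SVT/t against NMRI glands, 3 in the fit reported, numbered 1 with only the 2 groups fitted, 1 without the 4 glands and 1 to 5 with 1 array left out. In tumors against WAP-SVT/t glands, 2 reported, they numbered 1 without a filter, 1 with only the 2 groups fitted, 0 without the 4 glands and 1 to 2 with 1 array left out. In tumors against NMRI glands, 8 reported, they numbered 1 without the 4 glands and 5 to 11 with 1 array left out. In lines against tumors, 1 reported, they numbered 0 with quantile normalization, the 10th percentile floor, the offset or no filter, and 0 to 11 with 1 array left out. With the replicate block they numbered 4, 3 and 10 in the tissue comparisons. Leaving out the 4 glands keeps 1 other gap junction gene in the test and 1 gland of each kind, assumed to vary like the tumors. The causes were not tested.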
